A study of Mus musculus with 2 samples.

Results

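The genes described here were those of neuropeptide Y and its receptors together with the peptides carried by forebrain interneurons and their relatives: the 6 peptide genes Npy, Sst, Vip, Cck, Tac1 and Tac2, and the 4 receptor genes Npy1r, Npy2r, Npy5r and Cckbr. They were chosen by gene name, with earlier results of these data known. These 10 of the 27962 gene names on the array were covered by 14 probes. Whole brain RNA of TDAG51 KO dams was compared on 2 arrays of 2 colours each. The KO sample, labelled with Cy3, was hybridized on the first array against WT (Cy5) and on the second against KO Tg (Cy5). KO dams were TDAG51-/-, WT dams TDAG51+/+, and KO Tg dams TDAG51-/- mice that also carried mouse TDAG51 under the BAI1-AP4 promoter, which drives it in the brain, mainly in cerebral cortex and hippocampus. All were 8-week-old C57BL/6J females taken on the day of birth (postpartum day 0), and the number of dams behind a sample was not given in the sources used here.

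Neuropeptides are cut from larger precursors, stored in dense-core granules and released to act on G protein-coupled receptors. Npy and Sst mark overlapping sets of GABA interneurons in cortex, hippocampus and striatum, Vip marks another set that inhibits other interneurons, and Cck is made by a further interneuron set and by many pyramidal neurons. Tac1 encodes substance P and neurokinin A and is abundant in striatal projection neurons, while Tac2 encodes neurokinin B. Npy of the arcuate nucleus drives feeding, and Npy of the limbic forebrain is known for its calming effect in rodents.

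Of the 10 genes, each read by its brightest probe, 9 gave a lower signal in KO than in both WT and KO Tg. Npy2r alone gave a higher one in both. Of all genes above background, 35.4% were lower in both. With 2-fold as the threshold, the fold cut-off of the study, Npy, Cck and Tac1 were lower in KO in both comparisons, and Vip and Cckbr were so against WT only. Of all genes above background, 1.55% were so in both comparisons and 4.45% against WT. Further probes of Cck, Cckbr and Tac1 did not share these sizes. With the median over a gene's probes, 1 of the 10 genes was 2-fold lower in both. The study also asked for a p-value, which was not used here. The ratios here were processed differently, and Npy1r, which the study lists as lower, stayed short of 2-fold. By real-time PCR of brain RNA the study also reported Npy, Npy1r and Cck as lower in KO dams. No gene of the 10 was 2-fold higher in either comparison. With 1 array for each comparison, no dye swap and no replicate, the differences below carry no test across animals, a dye effect of a probe stays in its ratio, and a value past 2-fold in one comparison is not shown to differ from a value short of it in the other. In whole brain RNA, fewer cells of a type, less RNA per cell and an unequal share of brain regions between samples cannot be told apart. On these arrays 8 of 10 striatal genes were at least 2-fold lower in KO in both comparisons, and 8 of 10 cerebellar genes at least 2-fold higher.

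The targeted gene, Phlda1 (TDAG51), was read first. Its 1 probe scanned at 350 in KO and 7283 in WT, a normalized log2 ratio of -4.11 (17.3-fold lower in KO). On the second array it scanned at 44.1 in KO and 50.5 in KO Tg, not well above background in either channel, so the probe shows no transgene signal and does not check the KO Tg label. The KO readings of this probe disagreed, being well above background on the first array and not on the second (-2.79 on the log2 scale, second over first), and the cause was not tested. KO Tg below names the sample by its label. Whether the probe lies in the transgene was not given in the sources used here. Over all spots, the median scanned signal was 336 to 338 in the Cy3 channels and 364 to 385 in the Cy5 channels, and the median background was between 39 and 44 in each. Of the 14 probes of the 10 genes, 13 were well above background in all 4 channels and none was saturated. Over the 245 probes printed in 5 or more spots, the median SD of the log2 ratio between spots of a probe was 0.063 and 0.065, which is the spread within an array only.

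Npy itself, the ligand of the Npy receptors, was dim in this whole brain RNA and was lower in KO on both arrays. Its probe (NM_023456, mouse build mm7, chr6:49783794-49787556, + strand, which spans 3763 bases and thus crosses an intron) had a normalized intensity of 104 in KO against 223 in WT, and of 91.9 in KO against 210 in KO Tg. Both KO values lay below both control values, and the 2 controls lay close to each other. The log2 ratios of KO over control were -1.11 and -1.19, or 2.15-fold and 2.29-fold lower. These intensities hold an added constant of 50 that shrinks the ratios of dim probes. Without it the same probe was 3.26-fold and 3.83-fold lower, and the scanner software's own log2 ratios were -2.04 ± 0.29 and -2.36 ± 0.33 (the error is the software's estimate for the probe on 1 array, not a spread between animals), or 4.11-fold and 5.15-fold. Npy was at least 2-fold lower in both comparisons under the main processing and 5 alternatives, with a range of -2.05 to -1.02 against WT and of -2.41 to -1.18 against KO Tg.

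The 3 Npy receptors did not share one direction and size. Npy1r (NM_010934, chr8:65162338-65162397, + strand), the receptor that mediates much of the postsynaptic action of Npy in cortex, limbic system and hypothalamus, read 165 in KO and 263 in WT on the first array. On the second it read 164 in KO and 303 in KO Tg. Both controls stood above both KO readings, which were nearly equal, and the log2 ratios of -0.67 and -0.89 (1.60-fold and 1.85-fold lower) stayed short of 2-fold in the main processing. By the scanner's own ratio they were 2.01-fold and 2.47-fold lower, past the threshold in both.

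Npy5r (NM_016708, chr8:65137033-65137092, - strand), a receptor tied to feeding whose probe lies 25245 bases from that of Npy1r on the opposite strand, was the gene in which WT and KO Tg differed most. It read 104 in KO and 114 in WT, and 101 in KO and 192 in KO Tg. KO Tg stood apart from the other 3 readings. The log2 ratio was -0.13 against WT and -0.94 against KO Tg, and the scanner's own ratio put the latter at 3.39-fold lower, past 2-fold, while that against WT was 1.23-fold lower. Npy2r (NM_008731, chr3:82643647-82643706, - strand), the receptor found largely on axon terminals, where it restrains release, read 1868 in KO and 1693 in WT, and 2075 in KO and 1744 in KO Tg. Its log2 ratios were 0.14 and 0.25, and without normalization between the dyes they became -0.08 and 1.62e-05, so the direction in both comparisons rests on that step.

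**Figure D1:**
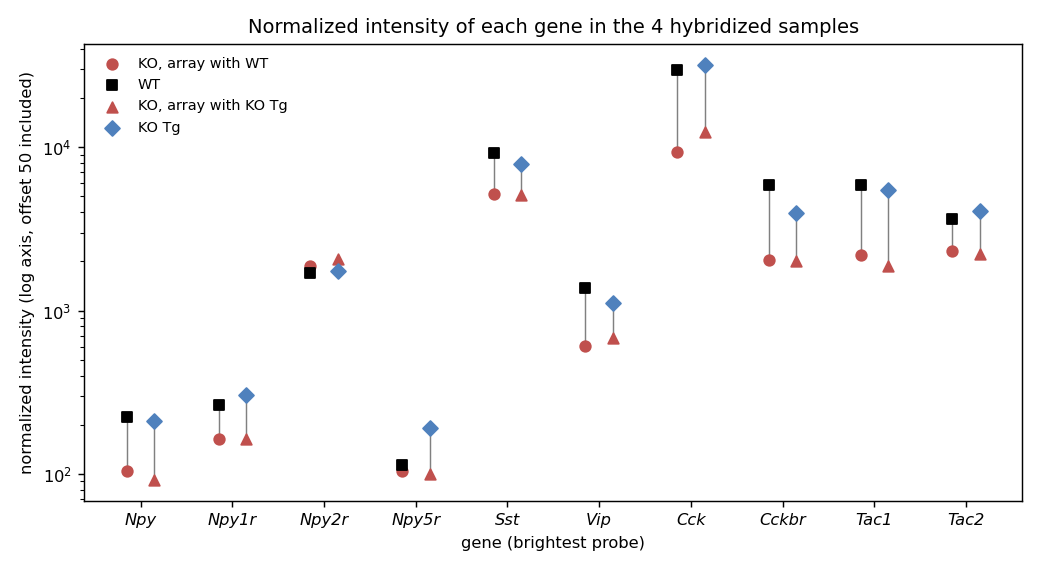
Normalized intensity (vertical log axis, an added constant of 50 included) of the brightest probe of each gene in the 4 hybridized samples, with lines joining the 2 samples of an array. The KO points lie below their control for 9 genes and above it for Npy2r, where KO read 1868 and 2075 against 1693 in WT and 1744 in KO Tg; levels of different genes come from different probes and are not to be set against each other.

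Sst, the peptide that inhibits hormone and transmitter release and marks a main class of dendrite-targeting interneurons, was lower in KO on both arrays without reaching 2-fold. Its probe (NM_009215, chr16:23547994-23548053, - strand) read 5203 in KO and 9201 in WT, and 5098 in KO and 7857 in KO Tg. It was printed in 10 spots, which lets the error within an array be seen. The 7 spots not marked as outliers on the first array gave a log2 ratio of -0.82 ± 0.02 (SD over spots), with a range of -0.85 to -0.79. The 9 such spots on the second gave -0.62 ± 0.02, with a range of -0.66 to -0.58. The spots of the 2 arrays did not overlap, which sets one hybridization apart from the other and not one genotype from another. With all 10 spots, a choice made after seeing the data, the means were -0.82 and -0.62. In fold terms Sst was 1.77-fold and 1.54-fold lower, and it passed 2-fold against WT in 2 of the 6 ways of processing and against KO Tg in 1.

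Vip, which marks interneurons that inhibit other interneurons and also the ventral suprachiasmatic nucleus, was lower in KO by more than 2-fold against WT. Its probe (NM_011702, chr10:4699488-4699547, listed on the - strand of mm7) read 610 in KO and 1379 in WT, and 680 in KO and 1115 in KO Tg. Both KO readings lay below both controls. The log2 ratios were -1.18 and -0.71 (2.26-fold and 1.64-fold lower). Against WT the ratio was past 2-fold in 6 of 6 ways of processing and against KO Tg in none.

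Cck, the cholecystokinin precursor, was lower in KO by more than 2-fold in both comparisons. Its RefSeq probe (NM_031161, chr9:121192651-121192710, - strand) read 9318 in KO and 29492 in WT, and 12309 in KO and 31923 in KO Tg. The log2 ratios were -1.66 and -1.37, or 3.16-fold and 2.59-fold lower, and both passed 2-fold in 6 of 6 ways of processing. Its ratio against WT was the lowest of the 10 genes in the main processing, while that of Npy was lower with an offset of 0 (-1.70 against -1.67), by the scanner's ratio and in the deposited table. The KO readings of the 2 arrays differed from each other by 0.40 on the log2 scale, the widest such gap of the 14 probes. A second, dim probe given the same gene name (BC028487, chr9:121196134-121196193, - strand) read 81.5 in KO and 98.1 in WT, and 82.8 in KO and 102 in KO Tg, with log2 ratios of -0.27 and -0.30. It shared the direction but not the size.

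Cckbr, the main cholecystokinin receptor of the brain, was lower in KO, as its ligand was, by its brighter probe and not by the other. The brighter probe (NM_007627, chr7:101492488-101492547, + strand) read 2053 in KO and 5864 in WT, and 2015 in KO and 3959 in KO Tg. Its log2 ratios were -1.51 and -0.97 (2.86-fold and 1.97-fold lower), so that against KO Tg it was the value just outside 2-fold, while Npy against WT, at -1.11, was the value just inside. The second probe of the same transcript (chr7:101490234-101490453, + strand, which spans 220 bases) went the other way. It read 249 in KO and 177 in WT, and 267 in KO and 208 in KO Tg, log2 ratios of 0.49 and 0.36. Both probes kept their own sign in 6 of 6 ways of processing, and the cause of the disagreement was not tested.

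Of the tachykinins, Tac1 was lower by more than 2-fold in both comparisons and Tac2 by less. The Tac1 probe of the RefSeq transcript (NM_009311, chr6:7510608-7512022, + strand, which spans 1415 bases across an intron) read 2192 in KO and 5831 in WT, and 1881 in KO and 5483 in KO Tg. The log2 ratios were -1.41 and -1.54 (2.66-fold and 2.91-fold lower), past 2-fold in 6 of 6 ways of processing in both. This was the lowest ratio of the 10 genes against KO Tg in the main processing only. Npy was lower with an offset of 0, by the scanner's ratio and in the deposited table, and Cck was lower with median centring or no normalization. Both other probes filed under Tac1 were designed on a different transcript (AK015286), some kilobases further along the chromosome, and showed neither ratio in the main processing. The one at chr6:7518355-7518414 gave 0.13 and -0.01. The one at chr6:7516864-7516922 gave -0.05 against WT, where the WT channel was not well above background, and -0.45 against KO Tg. Its ratio against KO Tg passed 2-fold in 2 of the 6 ways of processing (-1.22 by the scanner and -1.32 in the deposited table). Tac2 (NM_009312, chr10:127230932-127232991, + strand, which spans 2060 bases) read 2305 in KO and 3609 in WT, and 2230 in KO and 4054 in KO Tg. Its log2 ratios were -0.65 and -0.86 (1.57-fold and 1.82-fold lower), with both KO readings below both controls.

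**Figure D2:**
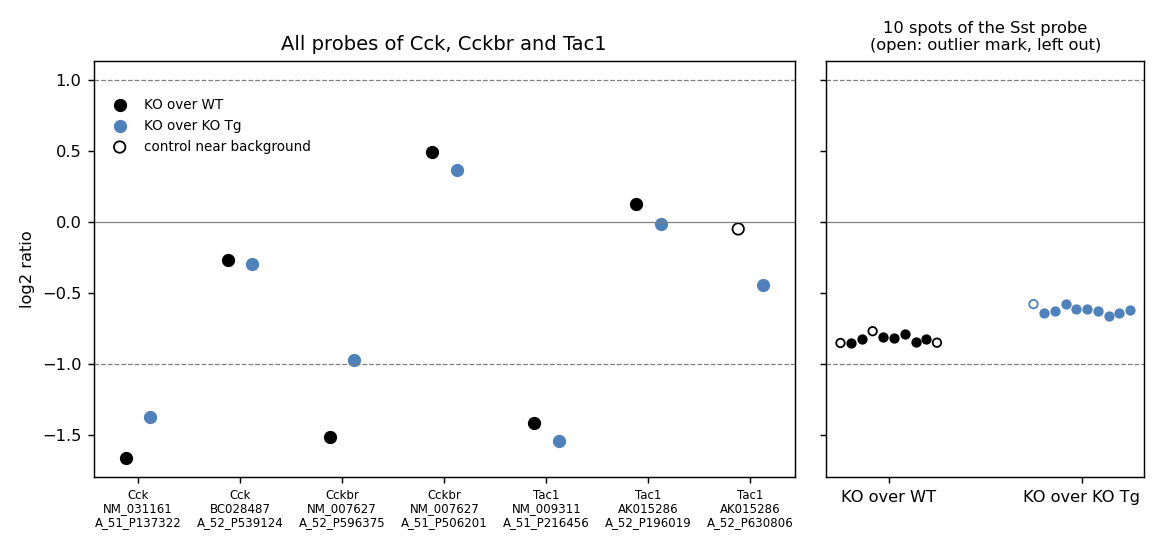
Log2 ratio of KO over control for every probe of the 3 genes with more than 1 probe (left, labelled by transcript and probe) and for the 10 spots of the Sst probe (right), against WT (black) and KO Tg (blue); open points are a control near background (left) or spots marked as outliers (right). The second Cckbr probe lies above 0 (0.49 and 0.36) while the brighter one lies at -1.51 and -0.97, and the Sst spots used stay within -0.85 to -0.79 and -0.66 to -0.58.

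Several peptide genes are known targets of the cAMP-responsive factor CREB, whose site was described early on in the Sst promoter. Promoters of peptide genes were therefore read for it. Those of 5 peptide genes are printed below, without that of Tac2, which held neither string marked in capitals. They are RefSeq sequences of build GRCm38.p6, read 5′ to 3′ on the gene's strand, and capitals mark the full site TGACGTCA and its first 5 letters TGACG on either strand (the full site holds the shorter one on both strands). They are Sst at chr16:23890795-23891094 (- strand), Vip at chr10:5638968-5639267 (+ strand), Cck at chr9:121495645-121495944 (- strand), Tac1 at chr6:7554811-7555110 (+ strand) and Npy at chr6:49822460-49822759 (+ strand). The strand of Vip here is opposite to that listed for its probe on mm7; the builds were not converted.
Sst: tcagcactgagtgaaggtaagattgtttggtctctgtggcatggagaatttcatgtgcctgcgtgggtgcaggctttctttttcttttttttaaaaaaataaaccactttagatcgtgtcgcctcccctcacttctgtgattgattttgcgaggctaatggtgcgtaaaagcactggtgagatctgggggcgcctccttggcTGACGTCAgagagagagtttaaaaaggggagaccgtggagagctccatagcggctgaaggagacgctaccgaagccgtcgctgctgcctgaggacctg
Vip: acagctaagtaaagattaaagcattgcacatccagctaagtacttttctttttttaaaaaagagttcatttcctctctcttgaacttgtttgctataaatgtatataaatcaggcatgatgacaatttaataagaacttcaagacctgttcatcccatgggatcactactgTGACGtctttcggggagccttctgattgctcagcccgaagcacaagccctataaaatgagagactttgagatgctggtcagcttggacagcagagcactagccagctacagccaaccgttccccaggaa
Cck: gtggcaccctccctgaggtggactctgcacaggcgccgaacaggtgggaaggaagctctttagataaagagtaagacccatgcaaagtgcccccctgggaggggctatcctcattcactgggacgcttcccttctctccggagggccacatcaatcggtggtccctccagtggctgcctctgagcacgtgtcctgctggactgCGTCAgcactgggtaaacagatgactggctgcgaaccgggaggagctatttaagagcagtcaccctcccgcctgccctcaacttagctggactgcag
Tac1: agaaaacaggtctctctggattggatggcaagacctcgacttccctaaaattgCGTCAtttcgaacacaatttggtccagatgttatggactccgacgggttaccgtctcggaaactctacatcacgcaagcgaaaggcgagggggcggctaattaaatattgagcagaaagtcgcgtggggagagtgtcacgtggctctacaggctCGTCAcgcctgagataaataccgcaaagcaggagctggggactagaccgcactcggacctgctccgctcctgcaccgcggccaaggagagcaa
Npy: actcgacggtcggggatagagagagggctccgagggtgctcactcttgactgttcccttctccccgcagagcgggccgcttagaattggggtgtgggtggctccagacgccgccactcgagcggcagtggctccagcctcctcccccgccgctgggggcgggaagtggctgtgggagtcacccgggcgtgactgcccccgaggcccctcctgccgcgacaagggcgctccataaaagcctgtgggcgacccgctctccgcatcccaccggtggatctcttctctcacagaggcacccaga

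The full site was found in 1 of the 10 promoters, that of Sst, with its first base at -48 from the annotated start, and in 1.79% of the 32851 mouse promoters of the same length. The shorter TGACG was found in 4 of the 10, those of Sst, Vip, Cck and Tac1, and in 20.8% of all. It lay at -79 in Vip, at -47 in Cck, and at -197 and -43 in Tac1 (positions of the leftmost base as printed). The E-box CACGTG was found in Cck, Cckbr, Npy5r and Tac1 and in 7.15% of all promoters, and the letters TATAAA in Vip alone and in 13.6% of all. The Npy window held none of the 4 motifs. A match is a description of letters, and the arrays measured no binding.

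The members were read against all genes on the same arrays. They were chosen with earlier results of these data known. The study's own list of lower genes from these arrays holds Npy, Npy1r, Cck and Tac1. Their shares beside those of all genes are therefore a description and not a test. Of 22506 genes above background, 4.45% were at least 2-fold lower in KO than in WT, against 5 of the 10 described here. Against KO Tg 3.84% were, and 3 of the 10. In both comparisons 1.55% were (349 genes), and 3 of the 10, while 2.77% were at least 2-fold higher in both (623 genes), and none of the 10. Of all genes, 35.4% were lower by any amount in both, and 9 of the 10. The median log2 ratio of the 10 was -0.96 against WT and -0.91 against KO Tg, and that of all genes 0.02 and 0.02. By probes, 11 of the 14 were lower by any amount in both comparisons, with medians of -0.66 and -0.79. All 3 of the 14 probes at least 2-fold lower in both belonged to those same 3 genes, against 1.37% of all probes (457 of 33253). The comparisons share the KO sample, so their agreement is not that of independent experiments. The split of all calls rests on the normalization: 35.9% of the genes past 2-fold in both were lower in KO after loess, 51.1% after median centring and 70.5% with no normalization, which moves the median of all genes to -0.22 and -0.27. The number of the 10 genes lower by any amount in both was 9 under each, while the share of all genes that were so rose from 35.4% to 43.2% with median centring and 56.6% with no normalization.

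**Figure D3:**
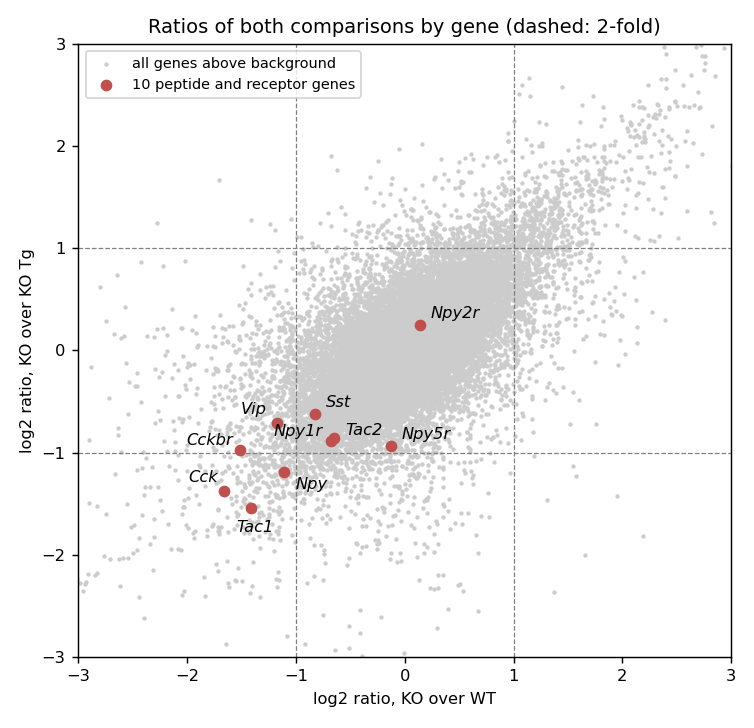
Log2 ratio of KO over WT (horizontal) against KO over KO Tg (vertical) for all genes above background (grey) and the 10 genes (red, named), with dashed lines at 2-fold; points beyond 3 on either axis are not drawn. Cck, Tac1 and Npy lie in the lower left corner, Cckbr and Vip past the vertical line only, and Npy2r above 0 on both axes.

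WT and KO Tg were never on one array, and their difference was taken from both ratios. Over 29876 probes well above background in all channels, the log2 difference of KO Tg over WT had a robust SD of 0.38, and 3 of the 10 genes differed by more than that: Npy5r was higher in KO Tg by 0.81, and Cckbr and Vip were lower in it by 0.54 and 0.46. For the other 7 the difference lay within that spread. Taken from the Cy5 channels instead (robust SD 0.40), 2 of the 10 differed by more, Npy5r by 0.76 and Cckbr by -0.57, while Vip came to -0.31. The sign of the small differences changed between the measures for Npy (0.09 and -0.09), Tac1 (0.13 and -0.09), Cck (-0.29 and 0.11) and Npy2r (-0.11 and 0.04). The KO readings of the arrays differed with a robust SD of 0.14 over the same probes, and those of the 14 probes by -0.22 to 0.40. For the Phlda1 probe, which is outside that set, the KO readings differed by -2.79. The labels do not say whether the KO RNA on both arrays was one preparation.

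The other peptides and receptors of the same families were not lower with them as a group. Of 19 such genes, 18 were found by name and 15 passed the background filter. None of the 15 was 2-fold lower in both comparisons and none 2-fold higher in both. Over all genes 1.55% and 2.77% were, so an empty count in a list this short says little. By any amount in both, 7 of the 15 were lower and 2 higher. Of all 22506 genes 7964 (35.4%) were lower and 8611 higher. The medians were -0.21 and -0.23, against 0.02 and 0.02 for all genes. The lowest pair of ratios was that of Cort, the close relative of Sst that is made by cortical interneurons, which read 1230 in KO and 2330 in WT, and 1132 in KO and 2020 in KO Tg, log2 ratios of -0.92 and -0.84. Among Sst receptors, Sstr3, the receptor of neuronal cilia, gave -0.30 against WT and -1.10 against KO Tg, and Sstr2 gave 0.03 and -0.98. For Sstr2, as for Npy5r, KO and WT were close and KO Tg was higher. KO Tg was also the highest reading of Sstr3, but the KO readings of Sstr3 differed by 0.58 on the log2 scale (second array over first). Sstr1 gave -0.32 and -0.42. The brighter Sstr4 probe gave 0.56 and -0.23 and its second probe -0.84 and -0.84.

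The Npy relatives Pyy, the gut hormone peptide YY, and Ppy, pancreatic polypeptide, were dim and gave -0.29 and -0.57, and -0.19 and -0.38. In the Vip family, the peptide gene Adcyap1 (PACAP) gave -0.39 and 0.01, its receptor gene Adcyap1r1 -0.21 and 0.31 by the brighter of 2 probes, and the shared receptor gene Vipr1 -0.30 and -0.24. The second Adcyap1r1 probe turned the direction against WT, at 1.31 (2.49-fold higher in KO), and gave 0.21 against KO Tg. The second Cck receptor, Cckar, gave 0.34 and -0.15. Tacr1, the substance P receptor, gave -0.58 and -0.13, and Tacr3, the neurokinin B receptor, 0.41 and 0.23. Tac4, the hemokinin gene, was at least 1.74-fold higher in KO than in WT and at least 1.60-fold higher than in KO Tg, both controls being not well above background, and it was the 1 gene of the list counted as 2-fold higher against KO Tg by its measured ratio. Tacr2 was near background, with -0.22 against KO Tg. Npy6r, Ppyr1 and Vipr2 did not pass the filter.

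**Figure D4:**
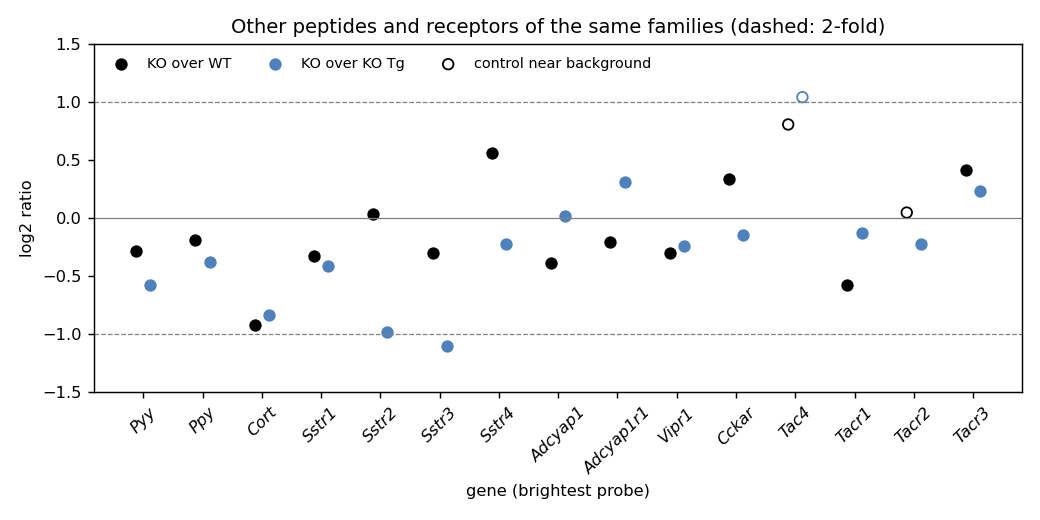
Log2 ratio of KO over WT (black) and KO over KO Tg (blue) for the 15 other peptide and receptor genes of the same families that passed the background filter, brightest probe, with dashed lines at 2-fold and open points where the control was near background. Cort is low in both (-0.92 and -0.84), Sstr2 and Sstr3 against KO Tg only (-0.98 and -1.10), and Tac4 lies above 0 in both.

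Of 10 genes for processing and storing peptides, none was past 2-fold in both comparisons, 4 were lower and 2 higher by any amount in both, and the medians were -0.11 and -0.16. The lowest, named after their values were seen, were Cpe, which trims peptide precursors, at -0.83 and -0.81 and Pcsk2, which cuts them, at -0.55 and -0.65, sizes like those of Sst. Of 17 GABA and interneuron genes measured, 1 was at least 2-fold lower in both and 1 at least 2-fold higher, 9 were lower and 5 higher by any amount in both, and the medians were -0.12 and -0.39. The lower one was Dlx1, a homeobox gene of forebrain interneurons, at -1.77 and -1.12. The higher one was Pvalb, the calcium-binding protein of fast-spiking interneurons that is also abundant in cerebellum, at 1.93 and 2.05 (3.82-fold and 4.14-fold). These 17 genes did not share one direction. Over all genes 1.55% were at least 2-fold lower in both and 2.77% higher, so the counts past 2-fold in both of these short lists say little.

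Markers of brain regions also differed between KO and both controls, in a direction that depended on the region. Of 10 striatal genes, 8 were at least 2-fold lower in KO in both comparisons (Drd1a, the dopamine receptor of Tac1 neurons, at -2.44 and -2.42). Drd2 (0.10 and 0.20) and Ppp1r1b (-0.003 and -0.20) were not. The summed normalized intensity of the 10 was 60190 in KO against 144900 in WT and 56889 in KO against 148311 in KO Tg. Of 10 cortical and hippocampal genes, 4 were so and 10 were lower by any amount (Tbr1 at -1.25 and -1.48), with sums of 111526 against 192897 and 104266 against 200981. Of 7 hypothalamic genes, 2 were at least 2-fold lower (Hcrt and Pmch). Of 10 cerebellar genes, 8 were at least 2-fold higher (Gabra6 at 3.87 and 3.92), with sums of 405722 against 123200 and 398220 against 121741. Of 9 hindbrain and brainstem genes, 8 were at least 2-fold higher, with medians of 2.82 and 2.95. General neuronal genes did not share one direction: none of 7 was past 2-fold in both, and 3 were lower and 3 higher by any amount in both. Their medians were 0.10 and -0.03, and 1 was at least 2-fold lower against KO Tg only. Eno2 and Syp were saturated in the control channel of both arrays, so their ratios may be too high. Of the glial genes none of 8 was past 2-fold in both, with medians of -0.37 and 0.06. Every gene of the striatal, cortical and cerebellar lists was well above background in both channels of both arrays, and 3 cortical and 3 cerebellar genes were saturated in 1 channel of an array, so their sums are lower bounds there. The part of these shifts in the values of the 10 genes was not tested.

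The 5 genes whose pair of log2 ratios lay nearest to that of Npy, of 16696 measured in all channels and over these 2 comparisons, were Ankrd45, 6430517E21Rik, Sprn, Mfi2 and Ptn, at distances of 0.009 to 0.032. The likeness was computed in the main processing only, in which the added constant shrinks the ratios of Npy.

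**Figure D5:**
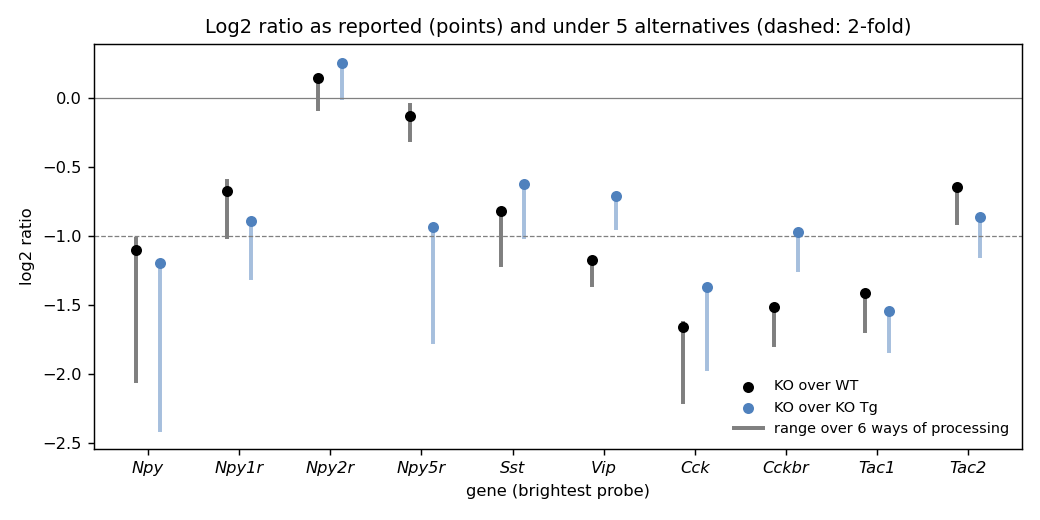
Log2 ratio of KO over WT (black) and KO over KO Tg (blue) for the brightest probe of each gene, as reported (points), with the range over 6 ways of processing (bars) and a dashed line at 2-fold. The bars of Npy, Cck and Tac1 stay below -1 in both comparisons, the bars of Vip and Cckbr do so against WT, and those of Npy1r, Npy5r, Sst, Cckbr and Tac2 against KO Tg cross it.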

How the data were processed

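Total RNA of whole brain, extracted with TRIzol, was hybridized by the authors to Agilent whole mouse genome arrays, and the deposited scanner files (Feature Extraction 9.5.3.1) hold the intensity of each spot and its background, a log10 ratio, an error score and p-value of that ratio, and marks for background, saturation and outlier spots. The authors also deposited a table of log2 ratios, which matched the sign and scale of the scanner's Cy3 over Cy5. From the mean intensities and median backgrounds, ratios were made with limma 3.58.1 in R 4.3.3: normexp with an offset of 50, loess within each array with control and outlier spots at weight 0, spots of a probe averaged. Levels are channel intensities after Aquantile. A gene was its brightest probe, kept if well above background in a channel of each array. A ratio near background was given as a bound.

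Calls are 2-fold differences with no test, and 1 array for each comparison limits the precision. The fit was tested on simulated data. The members and lists were chosen with earlier results of these data known. Named genes were the 10 members with every probe, Phlda1, the related peptides and receptors above background, genes of the other lists past 2-fold in both comparisons (at most 5 a list) and the 5 nearest to Npy. Cpe, Pcsk2, Eno2, Syp, Drd2 and Ppp1r1b were named after their values were seen. Probe coordinates are those listed in the scanner files (mm7), and 11 of the 14 accessions were found in the RefSeq gene table. Alternatives were the median over a gene's probes, an offset of 0, a stricter or no background filter, centring on the median or no normalization, and the log2 ratios of the scanner, with or without its p-value, and of the deposited table.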

Additional observations from a re-analysis of the deposited data

How the results depend on the processing

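The signs were steadier than the counts. Taking the median over a gene's probes, which brings in the disagreeing probes of Cck, Cckbr and Tac1, gave 2 member genes at least 2-fold lower against WT in place of 5, 1 against KO Tg in place of 3 and 1 in both in place of 3. Against KO Tg the count of 3 became 5 with an offset of 0, with the scanner's ratio (also with its p-value) and with the deposited log2 ratio, and 8 with no normalization, which also gave 5 in both. With no normalization 1 related gene was 2-fold lower in both, in place of 0. For the GABA and interneuron genes the count of 1 became 2 with an offset of 0 or median centring, and 3 with the scanner's ratio (also with its p-value), the deposited ratio or no normalization. The 457 probes lower in both became 820 with an offset of 0, 1034 with the scanner's ratio (also with its p-value), 757 with median centring, 1233 with no normalization and 1101 with the deposited ratio. Filters on dim probes changed no count by 1.5 times. Of single-probe values under an alternative, 100 moved by more than the spread between spots and 56 did not. The offset shrinks dim ratios by construction, and the causes of the other changes were not tested. No paired analysis was possible because each group holds 1 array. Dim probes such as Npy and Npy5r, at signals within a few fold of background, have the least certain sizes.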
